A study of Mus musculus with 13 samples.

Results

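Macrophages grown from mouse bone marrow that lacked histone deacetylase 3 (HDAC3) and had received interleukin-4 (IL-4) were set against resting control macrophages. The arrays were chosen by sample title, 3 of HDAC3 knockout cells in IL-4 (KO IL-4) and 4 of control cells in vehicle (control vehicle), which makes 7 of the 13 arrays of the series. The other arrays, 3 of knockout cells in vehicle (KO vehicle) and 3 of control cells in IL-4 (control IL-4), show each factor alone and entered the same fit. Marrow came from male C57BL/6 mice aged 12 to 16 weeks and was cultured for 6 days with 30% L929-conditioned medium. Control and knockout mice both carried Hdac3 with floxed exons 4 to 7. Knockout mice also carried Cre under the lysozyme M promoter, which is active in myeloid cells. No Cre is named for control mice, so an effect of Cre and one of HDAC3 loss cannot be told apart. Cells received IL-4 at 10 ng/mL, or vehicle (0.1% BSA), for 24 hours. Nothing in the labels tells if the arrays within a group are different animals or cultures, and the p-values therefore cover the spread of these samples alone, which may be technical.

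HDAC3 is the catalytic subunit of nuclear corepressor complexes, which DNA-bound transcription factors bring to their target genes and which remove acetyl groups from histones. IL-4 acts through its receptor and the transcription factor STAT6. In macrophages it turns on alternative activation, a programme that includes arginase 1, chitinase-like lectins and resistin-like proteins.

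A level is the log2 intensity of a gene's probe minus the 75th percentile of its array, and a change is a difference between group means of such levels, so that a change of 1 is a 2-fold difference. Levels of different genes come from different probes and are not set against each other. All single-factor changes printed beside the combined change use the same 4 control vehicle arrays and are not independent of it. The share of spots well above background ran from 56.2% to 83.2% over the 13 arrays, and the lowest shares were those of control vehicle 4 (56.2%) and KO IL-4 array 15 (61.1%). The median SD over genes was 0.244 among KO IL-4 arrays and 0.18 among control vehicle arrays. All 21 macrophage markers were well above background on all arrays of both groups, and their summed level, as signal over the array's 75th percentile, was 1122 to 1210 on control vehicle arrays and 1136 to 1162 on KO IL-4 arrays.

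Hdac3 was at -1.70, -2.14, -2.01 and -2.18 on control vehicle arrays and at -3.16, -3.35 and -4.02 on KO IL-4 arrays. The groups did not overlap, and the change was -1.50 (SE 0.218, limma adjusted p = 0.000685). With normexp background correction followed by quantile normalization, a setting that changes both choices at once and is called the normexp and quantile setting here, it was -0.62. Whether this probe lies within the deleted exons is not known here, and if it does not, its level checks nothing about the deletion. Lyz2, the gene whose promoter drives Cre, had a change of -0.11 (SE 0.0835, limma adjusted p = 0.46). In the normexp and quantile setting it was called lower, at -0.32 (limma adjusted p = 0.0118).

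Of 20546 genes tested, 2588 (12.6%) differed between KO IL-4 and control vehicle arrays at an adjusted p under 0.05 in limma. They were 1447 genes higher (7.04%) and 1141 lower (5.55%), of which 371 (1.81%) and 355 (1.73%) differed at least 2-fold. HDAC3 loss in vehicle gave 505 genes higher (2.46%) and 471 lower (2.29%), and IL-4 in control cells gave 576 (2.8%) and 596 (2.9%). The arrays of KO IL-4 lay wholly above those of control vehicle for 13.2% of all genes and wholly below for 9.67%. The median combined change over all genes was -0.02. With each array scaled on probes detected on all arrays, that median was -0.10 and the split was 1330 higher and 1567 lower. Without KO IL-4 array 14, 925 genes were higher, and without the 2 arrays with the lowest shares of spots above background 733 were lower. All arrays of a group had the same position on their slides, different from that of other groups, and effects of slide position cannot be told apart from those of group. In RNA of whole cultures, fewer cells of a type and less RNA per cell cannot be told apart either.

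**Figure D1:**
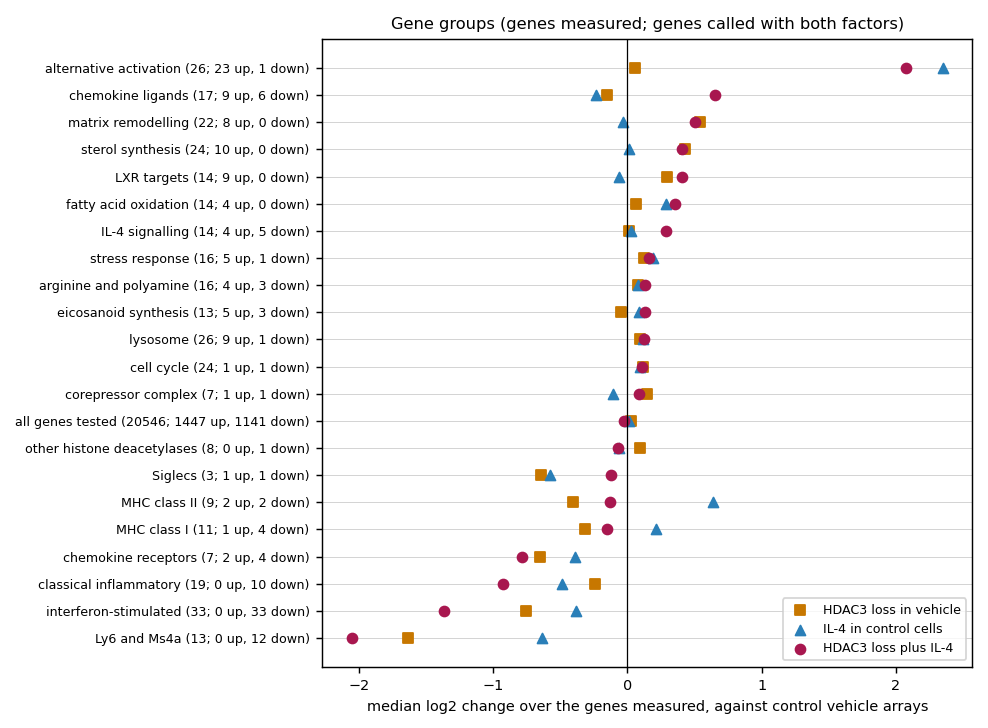
Median log2 change (horizontal axis) over the measured genes of each group (vertical axis), for HDAC3 loss in vehicle, IL-4 in control cells and both factors, each against the control vehicle arrays. With both factors the alternative activation genes lie farthest to the right, at 2.07, and the Ly6 and Ms4a genes farthest to the left, at -2.05, beside -0.02 for all genes tested.

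Genes of alternative activation were higher as a group. Of 26 measured, 23 rose and 1 fell with both factors, and their median change was 2.07. Over all genes tested 7.04% rose and 5.55% fell. IL-4 in control cells gave a median of 2.35 with 22 higher, and HDAC3 loss in vehicle gave 0.05 with 8 higher and 4 lower. Within slides 1, 2 and 3, each with 1 array of both compared groups, the combined median was 1.84, 2.47 and 2.34. Ch25h, which makes 25-hydroxycholesterol, was the member that fell, by 2.14, or by 1.32 in the normexp and quantile setting, and Myc and Pdcd1lg2 had changes of 0.18 and 0.04 that did not pass.

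Retnla, which encodes the secreted resistin-like molecule alpha, had the largest rise among the named genes. It was at -4.28, -4.32, -5.28 and -4.95 in control vehicle, -4.94, -5.18 and -5.27 in KO vehicle, 5.01, 4.52 and 4.79 in control IL-4 and 5.65, 5.97 and 5.75 in KO IL-4. Both vehicle groups were low, and all KO IL-4 arrays lay above all control IL-4 arrays. The combined change was 10.502 (SE 0.23, limma adjusted p = 5.87e-10), but only 1 of 4 control vehicle arrays had Retnla well above background. KO IL-4 exceeded control IL-4 by 1.02 (limma adjusted p = 0.0433), a difference that stayed past the threshold, with that against the other groups, in 11 of 25 alternative settings and in none that left out 1 KO IL-4, KO vehicle or control IL-4 array.

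The promoter of Retnla is shown because that gene rose most. The letters TTC and GAA with any 4 bases between them, a form that STAT proteins bind, stood on either strand in 5 of 26 RefSeq promoter windows (19.2%) of the alternative activation genes and in 5.82% of all 15639 windows, each from 250 bases before to 50 after a start. The 5 windows belong to 4 genes, among them Pdcd1lg2, whose change did not pass. The share was 6.52% for all genes called higher and 6.75% for all called lower. It was 17.9% (5 of 28) for interferon-stimulated genes and 16.7% (2 of 12) for Ly6 and Ms4a genes, 2 groups that fell. A match is a description of letters and not a binding site. The 250 bases before the Retnla start (chr16:48842359-48842608, GRCm38.p6, plus strand) follow, with capitals for the match 145 bases before the start.
Retnla: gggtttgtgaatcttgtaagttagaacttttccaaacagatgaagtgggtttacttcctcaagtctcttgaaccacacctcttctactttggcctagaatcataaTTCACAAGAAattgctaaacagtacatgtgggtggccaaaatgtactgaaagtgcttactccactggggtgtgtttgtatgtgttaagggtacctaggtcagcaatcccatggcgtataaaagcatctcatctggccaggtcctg

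Arg1, the arginase that splits arginine into ornithine and urea, was at -2.96, -2.97, -2.69 and -2.47 in control vehicle, -2.19, -2.44 and -2.33 in KO vehicle, 1.39, 1.41 and 0.94 in control IL-4 and 2.71, 3.0 and 2.60 in KO IL-4. The lowest KO IL-4 array was above the highest array of any other group. The combined change was 5.54 (SE 0.163, limma adjusted p = 8.08e-09), with 4.02 for IL-4 in control cells and 0.45 (limma adjusted p = 0.199) for HDAC3 loss in vehicle. KO IL-4 exceeded control IL-4 by 1.53 (limma adjusted p = 0.00068). The probe lies at chr10:24636194-24636253 (mm9).

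Chil3 and Chil4 encode chitinase-like lectins. Chil3 was at 1.18, -0.13, 0.13 and 0.20 in control vehicle and at 7.06, 7.30 and 6.86 in KO IL-4, a change of 6.73 (SE 0.425, limma adjusted p = 2.08e-06). Chil4 was at -2.19, -2.30, -2.85 and -1.99 in control vehicle, -2.23, -2.24 and -2.89 in KO vehicle, 0.24, -0.78 and 0.08 in control IL-4 and 1.97, 2.65 and 1.44 in KO IL-4. For both genes the compared groups were far apart, and for Chil4 the KO IL-4 arrays also lay above all control IL-4 arrays. The combined change of Chil4 was 4.35, and KO IL-4 exceeded control IL-4 by 2.17 (limma adjusted p = 0.00511). For Chil3 that difference was 1.36 (limma adjusted p = 0.159).

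Ribonuclease genes of the Ear family also rose. Rnase2a changed by 6.45, Ear10 by 5.89 and Ear1 by 5.75, and IL-4 in control cells gave 6.32, 4.60 and 4.75. Ear3 was not well above background on any control vehicle array and was at least 33.6-fold higher in KO IL-4. Such a bound sets the bright group against the lowest signal that counts as well above background on the dim arrays. These family members are close in sequence, so which of them each probe reports is uncertain. Cish, a feedback inhibitor of cytokine signalling, was at least 24.3-fold higher, also from below background. In the normexp and quantile setting the changes of Ear3, Ear10 and Cish were 3.32, 3.39 and 3.09.

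Smaller rises included Clec7a, the beta-glucan receptor Dectin-1, at 2.38 and Mrc1, the mannose receptor, at 1.43. Clec7a changed by 2.04 with IL-4 and by 1.38 with HDAC3 loss. Slc7a2, a transporter of arginine, changed by 3.91 with both factors, 4.34 with IL-4 and 0.14 (limma adjusted p = 0.918) with HDAC3 loss.

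Genes of IL-4 signalling did not move one way. Of 14 measured, 4 rose and 5 fell, where 7.04% and 5.55% of all genes tested did so. Socs1, an inhibitor of JAK kinases, was at -2.15, -2.20, -2.28 and -2.69 in control vehicle, -3.48, -3.08 and -2.62 in KO vehicle, 0.26, 0.25 and 0.13 in control IL-4 and -0.69, -0.75 and -0.59 in KO IL-4. Its KO IL-4 arrays lay between those of control IL-4 and those of control vehicle, with a combined change of 1.66 (SE 0.184, limma adjusted p = 9.63e-05), or 1.08 in the normexp and quantile setting. The kinase gene Jak3 fell by 0.95 and the phosphatase gene Ptpn6 by 0.98, whereas Il4ra, the receptor chain that binds IL-4, rose by 0.92. Stat6 had a change of 0.28 (limma adjusted p = 0.159). Leaving out single arrays gave 2 to 4 members lower, with 2 without control vehicle 1, control vehicle 2 or KO IL-4 15 and 3 without control vehicle 3 or 4, KO vehicle 5, control IL-4 10 or 12, or KO IL-4 13 or 14.

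Several of the largest rises came with HDAC3 loss or with both factors. Il1rl2, a receptor for interleukin-36 cytokines, was at -4.52, -5.22, -5.94 and -4.99 in control vehicle, -0.51, -0.35 and -0.85 in KO vehicle, -1.80, -2.17 and -1.65 in control IL-4 and 1.62, 1.88 and 1.49 in KO IL-4. KO IL-4 was the highest group, without overlap. No control vehicle array had Il1rl2 well above background, and KO IL-4 was at least 51.6-fold higher (limma adjusted p = 9.52e-08). Its change was 6.83 as measured and 4.01 in the normexp and quantile setting. KO IL-4 exceeded KO vehicle by 2.23 and control IL-4 by 3.54.

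Ccl7 and Ccl2 encode chemokines that attract monocytes. Ccl7 was at -0.59, -1.19, -0.64 and -0.98 in control vehicle, 2.16, 2.72 and 2.15 in KO vehicle, 1.57, 1.74 and 1.56 in control IL-4 and 3.58, 4.07 and 3.67 in KO IL-4. The KO IL-4 arrays were above all others, and the change of 4.63 (SE 0.19, limma adjusted p = 9.52e-08) stands beside 3.19 for HDAC3 loss and 2.48 for IL-4. Ccl2 rose by 4.05 with both factors and by 3.42 with HDAC3 loss, and its change with IL-4 was 0.81 (limma adjusted p = 0.0545). Ptger2, a receptor for prostaglandin E2, rose by 2.84, with 1.89 for HDAC3 loss and 1.66 for IL-4.

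Siglecf, a receptor that binds sialic acids, was at -2.17, -1.80, -1.62 and -1.28 in control vehicle, 3.86, 4.15 and 2.92 in KO vehicle, -1.23, -1.88 and -1.32 in control IL-4 and 3.39, 4.11 and 2.70 in KO IL-4. Both knockout groups were high and overlapped each other, and both control groups were low. The combined change was 5.12 (SE 0.363, limma adjusted p = 4.08e-06), and KO IL-4 differed from KO vehicle by -0.24 (limma adjusted p = 0.848). Ccr1, a chemokine receptor gene, rose by 4.02 with both factors, by 3.70 with HDAC3 loss and by 1.11 with IL-4. Siglec1, another member of the Siglec family, fell by 1.81, although 1 of its 2 probes moved the other way.

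Chemokine genes went both ways. Of 17 ligand genes 9 rose and 6 fell, and of 7 receptor genes 2 rose and 4 fell. Over all genes tested 7.04% rose and 5.55% fell. Ccl24, which attracts eosinophils, rose by 3.52, with 2.37 for HDAC3 loss and 1.72 for IL-4. Ccl5, which attracts T cells, was at 3.50, 3.99, 3.34 and 3.59 in control vehicle and 0.52, 0.82 and 1.02 in KO IL-4. These arrays did not overlap, and the change of -2.82 (SE 0.203, limma adjusted p = 4.4e-06) stands beside -2.51 for HDAC3 loss and -0.45 (limma adjusted p = 0.329) for IL-4. Among receptor genes Cxcr3 fell by 1.82 and Ccr2 by 1.73, and in the normexp and quantile setting Cxcr3 was at -1.14.

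**Figure D2:**
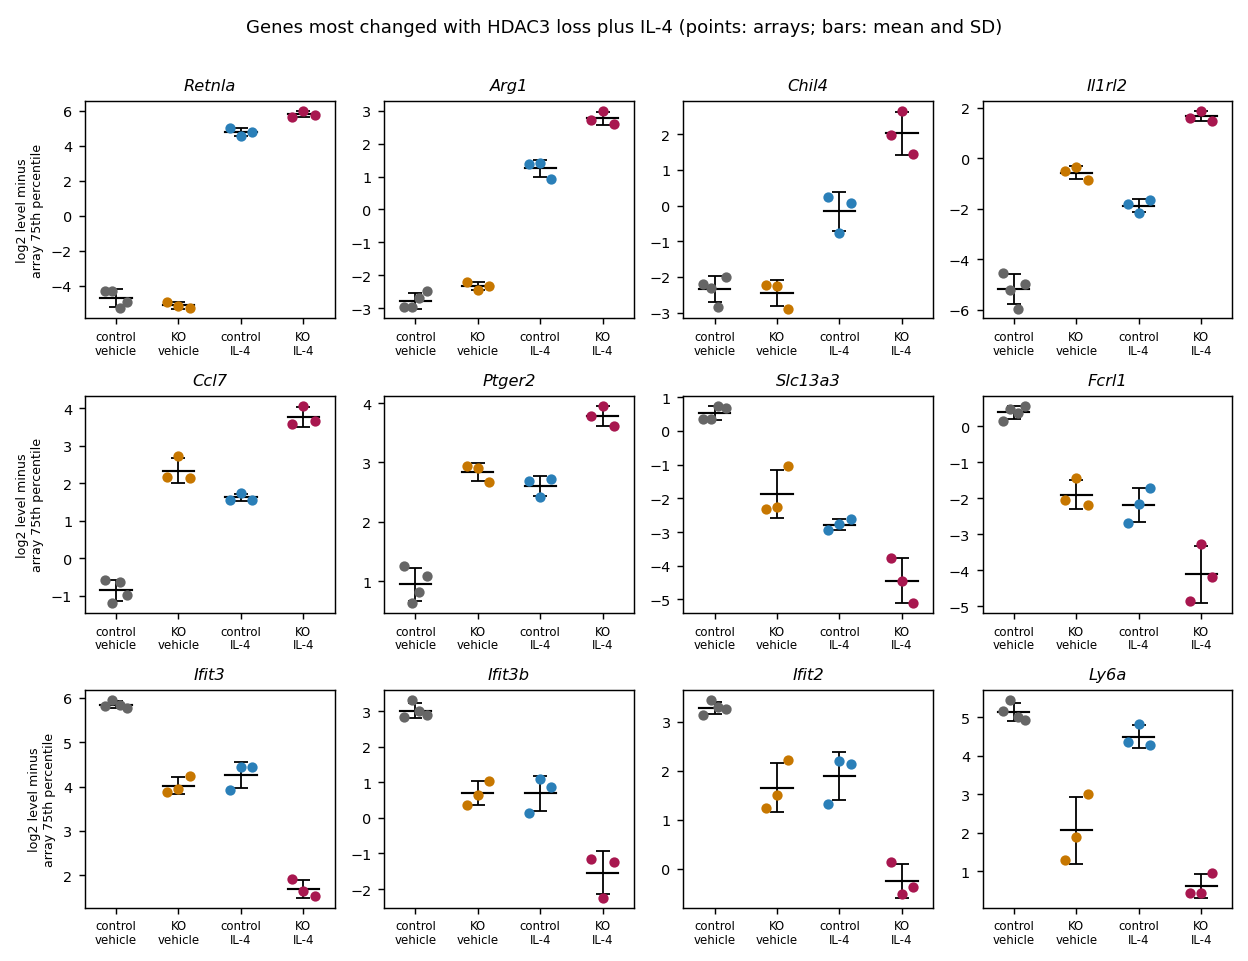
Log2 level minus the 75th percentile of the array (vertical axis, own scale in each panel) of 12 genes on the 13 arrays, by group (horizontal axis); points are arrays and bars are the mean and SD. In each panel the KO IL-4 arrays do not overlap the control vehicle arrays, which the choice of genes required for part of them. Ifit3 falls from 5.78 or more on control vehicle arrays to 1.91 or less on KO IL-4 arrays.

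Interferon-stimulated genes, which act against viruses, fell together. All 33 measured were called lower, where 5.55% of all genes tested were, and their median change was -1.37. HDAC3 loss in vehicle gave a median of -0.75 with 28 called lower, and IL-4 in control cells gave -0.38 with 12 called lower. Within slides 1, 2 and 3 the combined median was -1.20, -1.39 and -1.45. The mean level of the 33 genes relative to the control vehicle mean was -1.66 to -1.46 on KO IL-4 arrays, -1.0 to -0.65 on KO vehicle arrays and -0.73 to -0.48 on control IL-4 arrays. The KO IL-4 arrays were below all others, while the single-factor groups overlapped. Leaving out single arrays gave 32 to 33 members lower.

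Ifit3, whose protein restrains viral translation, was at 5.82, 5.95, 5.84 and 5.78 in control vehicle, 3.89, 3.95 and 4.24 in KO vehicle, 3.93, 4.44 and 4.44 in control IL-4 and 1.91, 1.64 and 1.53 in KO IL-4. The 4 control vehicle arrays lay close together and the KO IL-4 arrays were lowest. The change was -4.15 (SE 0.148, limma adjusted p = 3.61e-08), with -1.82 for HDAC3 loss and -1.58 for IL-4. KO IL-4 was below KO vehicle by -2.33 (limma adjusted p = 1.84e-05) and below control IL-4 by -2.57 (limma adjusted p = 2.76e-05) on the signed scale. The probe lies at chr19:34663105-34663164 (mm9).

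Other genes of the family fell likewise. Ifit3b, which is near-identical to Ifit3 so that their probes may share signal, changed by -4.55. Ifit2 changed by -3.53 and Ifit1 by -1.74. Ifit1 was at 5.97, 6.22, 6.08 and 6.12 in control vehicle and at 4.58, 4.25 and 4.24 in KO IL-4, without overlap. Oasl1, of the oligoadenylate synthetase family, fell by 2.79 and Xaf1, a cell death factor, by 1.87. The transcription factor gene Irf7 fell by 1.89, Isg15, a ubiquitin-like modifier, by 1.47, and the smallest fall of the 33 was that of Ifitm3, by 0.33 (limma adjusted p = 0.0399). The Ifitm3 call held on leaving out control vehicle 1, KO vehicle 7 or control IL-4 9 and was lost without any other single array.

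**Figure D3:**
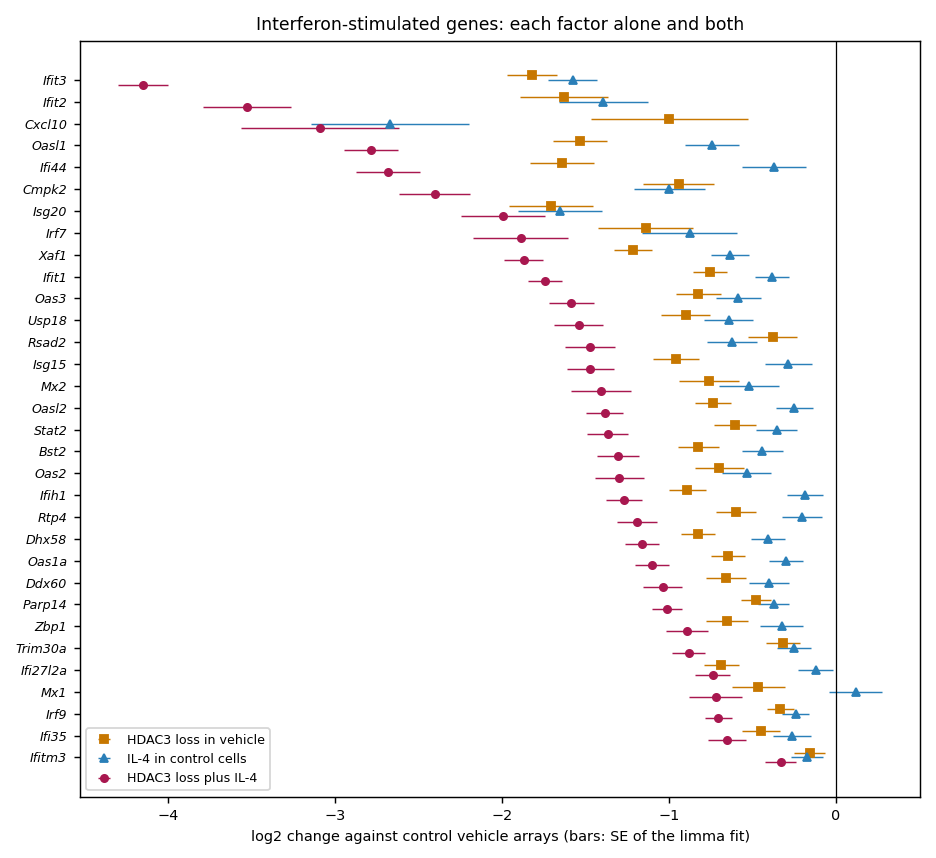
Log2 change against the control vehicle arrays (horizontal axis) of 32 of the 33 interferon-stimulated genes measured (vertical axis, ordered by the combined change), for HDAC3 loss in vehicle, IL-4 in control cells and both factors, with the SE of the limma fit as bars. The combined changes run from -4.15 for Ifit3 to -0.33 for Ifitm3.

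The promoters of Ifit3 and Ifit1 are shown because these genes had the smallest adjusted p of the group. The letters GAAA repeated after any 2 bases, the core of the interferon-stimulated response element, stood on either strand in 14 of 28 windows (50%) of the interferon-stimulated genes, in 7.98% of the windows of all genes called lower and in 3.28% of all windows. The share was 2.91% for all genes called higher and 15.8% (3 of 19) for the matrix genes given below. The 250 bases before the starts of Ifit3 (chr19:34583279-34583528) and Ifit1 (chr19:34640639-34640888, both GRCm38.p6, plus strand) follow. Capitals mark the matches, which begin 156 and 122 bases before the start in Ifit3 and 104 and 85 in Ifit1.
Ifit3: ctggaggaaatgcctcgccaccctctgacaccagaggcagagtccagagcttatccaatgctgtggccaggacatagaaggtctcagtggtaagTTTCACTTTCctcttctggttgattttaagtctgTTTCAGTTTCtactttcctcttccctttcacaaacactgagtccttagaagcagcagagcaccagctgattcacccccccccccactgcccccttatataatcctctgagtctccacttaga
Ifit1: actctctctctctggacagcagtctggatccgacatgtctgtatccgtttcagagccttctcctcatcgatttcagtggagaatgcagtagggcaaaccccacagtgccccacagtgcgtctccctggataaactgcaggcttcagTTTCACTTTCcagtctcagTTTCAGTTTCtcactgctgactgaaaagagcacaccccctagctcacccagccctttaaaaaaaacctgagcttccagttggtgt

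Genes of classical inflammatory activation fell or did not pass the test. Of 19 measured, 10 fell and none rose, with a median of -0.92, where 5.55% of all genes tested fell and 7.04% rose. HDAC3 loss in vehicle lowered 3 of them and IL-4 in control cells 8. Nfkbiz, a nuclear regulator of NF-kappaB, was at 2.05, 2.58, 2.53 and 2.44 in control vehicle, 0.45, 0.58 and 1.72 in KO vehicle, -1.21, -0.32 and -0.49 in control IL-4 and -1.19, -1.26 and -0.65 in KO IL-4. Both IL-4 groups were low and overlapped, and the combined change was -3.43 (SE 0.313, limma adjusted p = 2.24e-05). Fpr2, a receptor for formyl peptides, fell by 3.24, the cytokine genes Il1b by 2.57 and Tnf by 0.95, and the neutrophil chemokine gene Cxcl2 by 1.31.

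Ly6 and Ms4a genes, which encode cell surface proteins, were lower in 12 of 13 cases, with a median of -2.05. Over all genes tested 5.55% were lower. HDAC3 loss in vehicle also lowered 12 (median -1.63) and IL-4 in control cells lowered 3 (median -0.63). Ly6a, also called Sca-1, was at 5.18, 5.45, 5.0 and 4.95 in control vehicle, 1.30, 1.89 and 3.02 in KO vehicle, 4.38, 4.84 and 4.27 in control IL-4 and 0.44, 0.44 and 0.97 in KO IL-4. The KO IL-4 arrays were below all others, with a change of -4.53 (SE 0.33, limma adjusted p = 4.88e-06). Ly6c2 fell by 4.02, Ms4a4c by 3.61 and Ms4a4d by 3.95. The family members are similar in sequence, so their probes are uncertain, and 1 of 2 Ms4a4d probes moved the other way.

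Further large falls were in single genes. Slc13a3, a dicarboxylate transporter, was at 0.35, 0.37, 0.75 and 0.69 in control vehicle, -2.31, -2.25 and -1.04 in KO vehicle, -2.95, -2.76 and -2.63 in control IL-4 and -3.76, -4.47 and -5.09 in KO IL-4. Its change was -4.98 (SE 0.334, limma adjusted p = 2.7e-06), and only 1 of 3 KO IL-4 arrays was well above background. Cd300e, an activating receptor, fell by 4.52. Fcrl1, of the Fc receptor-like family, fell by 4.50 and Fgl2, a fibrinogen-like protein, by 4.10. In the normexp and quantile setting Slc13a3, Fcrl1 and Fgl2 were at -2.67, -2.63 and -2.28.

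Matrix genes, for proteases and their partners, rose in 8 of 22 cases and fell in none, with a median of 0.50. Over all genes tested 7.04% rose and 5.55% fell. HDAC3 loss in vehicle raised 7 and IL-4 in control cells none. Mmp13, a collagenase, was at 0.19, -0.43, -0.11 and -0.34 in control vehicle, 3.93, 4.31 and 2.88 in KO vehicle, 0.29, -0.53 and 0.24 in control IL-4 and 3.99, 4.28 and 3.10 in KO IL-4. Both knockout groups were high and both control groups low, and the combined change was 3.96 (SE 0.364, limma adjusted p = 2.34e-05). Plaur, the urokinase receptor, rose by 2.61, Mmp12, an elastase, by 2.51, Spp1, the secreted protein osteopontin, by 1.07, and Mmp19 by 2.77, or 1.75 in the normexp and quantile setting. Without control vehicle 3, 1 matrix gene was called lower.

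The promoters of Mmp13 and Plaur are shown because these 2 genes had the smallest adjusted p of the matrix genes. The AP-1 letters TGAGTCA stood on either strand in 4 of 19 windows (21.1%) of matrix genes and in 4.32% of all windows. One of these matrix genes was Adam19, which was not called (limma adjusted p = 0.117). The share was 4.51% for all genes called higher, 6.08% for all called lower and 17.9% (5 of 28) for the interferon-stimulated genes, which fell. The 250 bases before the starts of Mmp13 (chr9:7272264-7272513) and Plaur (chr7:24462233-24462482, both GRCm38.p6, plus strand) follow, with capitals for the match 35 bases before the start in Mmp13 and 69 in Plaur, both in the reverse orientation.
Mmp13: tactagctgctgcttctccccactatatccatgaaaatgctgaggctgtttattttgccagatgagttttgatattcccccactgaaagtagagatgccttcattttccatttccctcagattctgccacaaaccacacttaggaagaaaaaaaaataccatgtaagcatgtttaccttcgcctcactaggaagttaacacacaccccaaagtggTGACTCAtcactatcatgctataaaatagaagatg
Plaur: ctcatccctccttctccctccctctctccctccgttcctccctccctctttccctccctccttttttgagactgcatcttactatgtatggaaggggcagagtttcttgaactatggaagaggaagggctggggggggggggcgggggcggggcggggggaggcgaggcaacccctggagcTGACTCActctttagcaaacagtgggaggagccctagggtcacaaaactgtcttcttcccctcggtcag

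Lipid genes rose in part, where 7.04% of all genes tested rose and 5.55% fell. Of 14 targets of the liver X receptors, nuclear receptors for oxysterols, 9 rose and none fell. Apoc2, an apolipoprotein gene, rose by 1.67 with both factors and by 2.17 with HDAC3 loss, and fell by 0.63 with IL-4. Scd2, a desaturase gene, rose by 2.50, Apoc1 by 1.54 and the regulator gene Srebf1 by 0.73. Without control vehicle 2 or without KO IL-4 14, 1 liver X receptor target was called lower. Among 24 genes for making sterols 10 rose, with none lower, and they included Mvd at 1.24 and Fdft1 at 0.95, both enzymes of the pathway. Of 14 genes of fatty acid oxidation 4 rose and none fell, with Echs1, an enoyl-CoA hydratase, at 0.89.

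Lysosomal genes were higher in 9 of 26 cases and lower in 1, beside 7.04% higher and 5.55% lower over all genes tested. Ctsl, a cathepsin, rose by 1.84 and Atp6v0d2, a proton pump subunit, by 1.85, while Ctsc, another cathepsin, fell by 0.85. Without KO IL-4 13, 2 members were lower. Of 16 genes of arginine and polyamine metabolism 4 rose and 3 fell, among them Sat1, which acetylates polyamines, at 0.77 and Slc7a7, an amino acid transporter, at -1.07. Of 13 genes of eicosanoid synthesis 5 rose and 3 fell. Tbxas1, thromboxane synthase, rose by 1.36, and Hpgds, a prostaglandin D synthase, fell by 1.71.

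Antigen presentation genes were called in both directions, beside 7.04% higher and 5.55% lower over all genes tested. Of 9 MHC class II genes 2 rose and 2 fell. H2-Ab1, a class II chain, was at 4.06, 3.01, 4.23 and 3.88 in control vehicle, 1.17, 1.29 and 1.32 in KO vehicle, 4.80, 4.11 and 4.61 in control IL-4 and 2.56, 3.15 and 2.48 in KO IL-4. The compared groups overlapped, and the change was -1.06 (SE 0.278, limma adjusted p = 0.0264), but within slide 2 it was 0.15. No class II gene was called lower without control vehicle 1, 3 or 4 or without KO IL-4 13 or 15, and 1 was called higher without control vehicle 1 or 2 or without KO IL-4 14 or 15. Of 11 class I genes 1 rose, the proteasome subunit gene Psmb10 at 0.78, and 4 fell, with Psmb8 at -0.78. Class I calls lower numbered 1 without control vehicle 2 or 3 or KO IL-4 15 and 2 without control vehicle 4 or KO IL-4 13 or 14.

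Calls among corepressor, histone deacetylase and cell cycle genes stand beside 7.04% higher and 5.55% lower over all genes tested. Of 7 corepressor genes Hdac3 fell and 1 was called higher, with 0 called higher without control vehicle 2 to 4, KO vehicle 5 to 7, control IL-4 12 or KO IL-4 14 or 15 and 2 without control IL-4 9. Of 8 other histone deacetylase genes Hdac9 was called lower at -0.81 (limma adjusted p = 0.0473), a call lost in 18 alternative settings, and 1 of its 3 probes moved the other way. The Hdac9 call was lost on leaving out any 1 of control vehicle 1 to 4, KO vehicle 5 to 7, control IL-4 9, 10 or 12 or KO IL-4 13 or 14. Of 24 cell cycle genes Ccnd1, cyclin D1, fell by 1.62 (SE 0.136, limma adjusted p = 1.28e-05) and Mcm4, a replication helicase subunit, was called higher at 0.31, a call lost in 16 alternative settings, among them leaving out any 1 of control vehicle 2 to 4, KO vehicle 5 or 6, control IL-4 12 or KO IL-4 13 or 14. Without control IL-4 9 or KO IL-4 14, 2 cell cycle genes were lower. Of 16 genes of stress and RNA quality 5 rose, with Ier3, an immediate early gene, at 2.23 and Jun, a subunit of AP-1, at 0.88, and Egr1, also an immediate early gene, was called lower, a call lost in 6 alternative settings, among them those without control vehicle 1 or KO IL-4 15.

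Genes that passed only when both factors acted numbered 1173 (5.71%), 695 higher (3.38%) and 478 lower (2.33%), and 63 (0.307%) and 69 (0.336%) of them changed at least 2-fold. Passing in 1 comparison and missing in others is no test of a difference. The 695 higher genes had a median combined change of 0.55 with 0.27 for HDAC3 loss and 0.25 for IL-4, and the 478 lower genes -0.59 with -0.26 and -0.24. No gene of either set passed the limma test of departure from additivity, which asks whether the combined change differs from the sum of the single changes. An unadjusted p under 0.05 for that departure was found for 21 of the 695 and 29 of the 478, beside 801 of all 20546 genes. Both sets were picked by passing and missing in these same comparisons, which shapes their medians and departures. Without KO IL-4 14 the sets held 205 and 285 genes, with 418 of the 1173 shared, and without KO IL-4 15 the lower set held 311.

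Sphk1, the kinase that makes sphingosine 1-phosphate, was at -4.56, -4.40, -3.74 and -4.24 in control vehicle, -3.25, -3.23 and -2.98 in KO vehicle, -3.09, -3.26 and -3.73 in control IL-4 and -2.24, -2.15 and -1.09 in KO IL-4. The KO IL-4 arrays were highest and the single-factor groups lay between, with changes of 2.40 (SE 0.28, limma adjusted p = 0.000137), 1.08 for HDAC3 loss (adjusted p = 0.053) and 0.87 for IL-4 (adjusted p = 0.118). Olr1, a receptor for oxidised LDL, was at -3.57, -3.07, -3.67 and -1.31 in control vehicle and -0.47, -0.27 and -1.01 in KO IL-4, with control vehicle 4 apart from the other controls. It changed by 2.32 (limma adjusted p = 0.00988) and lost its place in the set without control vehicle 4. Scd1, a fatty acid desaturase, was at -0.28, -0.63, -0.63 and -0.61 in control vehicle and 1.61, 2.04 and 0.53 in KO IL-4, a change of 1.93 (limma adjusted p = 0.00876), and left the set without KO vehicle 7 or KO IL-4 15.

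The other higher genes of the set that were picked by size were Nxn, a nucleoredoxin, at 2.20, Lims2, a focal adhesion protein, at 1.97 and Cdrt4 at 1.91. That pick took only genes without array overlap and without a placeholder symbol, and the largest change in the higher set, 2.94, lay outside it. Sphk1 and Nxn kept their place in 19 of 25 alternative settings, Lims2 in 18 and Cdrt4 in 18. Sphk1 left the set with slide as a fixed or as a random block, among other settings. The combined call of Nxn was lost without control vehicle 3 or any 1 KO IL-4 array, and that of Cdrt4 without control vehicle 1, 3 or 4 or KO IL-4 14 or 15. Tgm2, a transglutaminase, and the chemokine gene Ccl17 were the alternative activation genes of the set, at 0.91 and 1.31. Ccl17 was at 0.80 in the normexp and quantile setting and was not called without control vehicle 2, 3 or 4 or KO IL-4 14 or 15, and its difference within slide 1 was -0.12. Trim30a, Mx1 and Ifitm3 were its interferon-stimulated genes, at -0.88, -0.72 and -0.33.

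Among the lower genes Crb3, a polarity protein, was at -3.29, -2.83, -2.65 and -3.44 in control vehicle, -3.43, -3.47 and -3.0 in KO vehicle, -3.90, -3.68 and -3.29 in control IL-4 and -4.70, -5.94 and -4.97 in KO IL-4. The KO IL-4 arrays were below all others and none was well above background, so it was at least 2.08-fold lower (limma adjusted p = 0.000432). Ninl, a centrosomal protein, was at -2.46, -3.33, -2.98 and -2.61 in control vehicle and -4.01, -6.15 and -5.23 in KO IL-4, a change of -2.29 (limma adjusted p = 0.00451). Ninl and Crb3 kept their place in 25 of 25 alternative settings, Gbp6 in 18, H2-M10.5 and Rsad1 in 20 each and Cyp2s1 in 15. Gbp6, an interferon-inducible GTPase, changed by -2.55, with -1.32 for HDAC3 loss (limma adjusted p = 0.0815) and -0.03 for IL-4. H2-M10.5, Rsad1 and Cyp2s1 were not well above background on any KO IL-4 array and were at least 1.83-fold, 1.88-fold and 1.36-fold lower. Their calls were lost on leaving out single arrays, among them KO IL-4 14 for each, KO IL-4 13 and control vehicle 1 or 2 for H2-M10.5 and Cyp2s1, control vehicle 3 for Rsad1 and Cyp2s1, and control vehicle 4 and KO IL-4 15 for Rsad1. In the normexp and quantile setting the changes of Sphk1, Olr1, Nxn, Lims2, Cdrt4, Gbp6 and Ninl were 1.14, 1.41, 0.84, 0.79, 0.68, -1.07 and -0.61, and those of Crb3, H2-M10.5, Rsad1 and Cyp2s1 were -0.40, -0.71, -0.66 and -0.60.

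**Figure D4:**
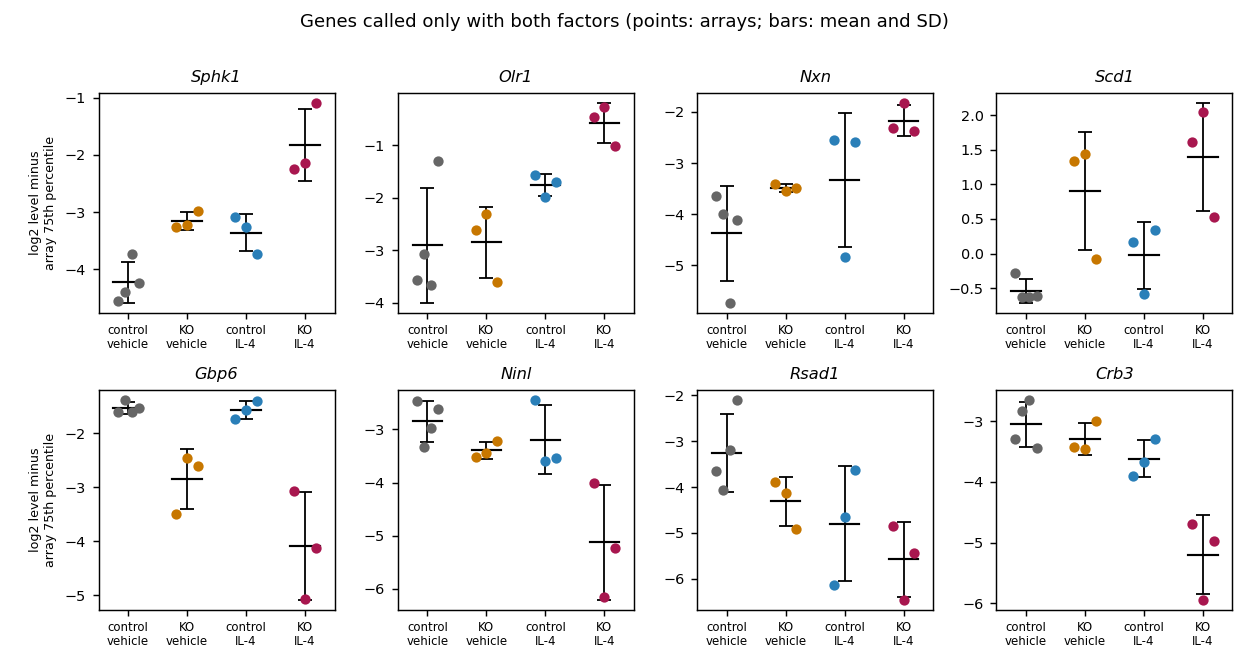
Log2 level minus the 75th percentile of the array (vertical axis, own scale in each panel) of 8 genes called only with both factors, on the 13 arrays by group (horizontal axis); points are arrays and bars are the mean and SD. The 8 genes were picked among those whose KO IL-4 and control vehicle arrays do not overlap, so the choice fixed that separation in each panel. For Sphk1 the ranges are -2.24 to -1.09 on KO IL-4 arrays and -4.56 to -3.74 on control vehicle arrays.

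A smaller set of 98 genes (0.477%) was called in the same direction against each of the other 3 groups, 28 higher (0.136%) and 70 lower (0.341%). These comparisons share the KO IL-4 arrays. Against KO vehicle alone 1.18% of all genes were higher and 1.03% lower, and against control IL-4 alone 2.07% and 1.64%. The interferon-stimulated genes gave 15 of the 70 lower genes, which is 15 of the 33 measured, with Ifit3, Ifit1, Oasl1 and Xaf1 among them. The windows of the 70 lower genes, which include windows of interferon-stimulated genes, held the interferon response letters given above in 16 of 64 cases (25%). They held the AP-1 letters in 9 of 64 (14.1%), beside 4.32% of all windows. Among the named genes Il1rl2, Arg1, Ccl7, Chil4, Ifit3 and Ifit3b kept this call in all alternative settings that gave a value, while Ms4a4d kept it in 10 of 26 and Slc13a3 in 17 of 25. The higher set held 14 without KO vehicle 5 or 6, 10 without KO vehicle 7, 17 without control IL-4 10 and 16 without KO IL-4 14. The lower set held 40 without KO vehicle 6 or 7, 43 without control IL-4 12, 41 without KO IL-4 14 and 38 without KO IL-4 15.

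Departure from additivity passed for 0 genes (0%) above the sum and 1 gene (0.00487%) below it in limma, and 801 genes had an unadjusted p under 0.05. That gene was Ptgs1, cyclooxygenase 1, which starts prostaglandin synthesis. It was at -2.36, -2.20, -1.95 and -2.50 in control vehicle, 1.23, 1.05 and 1.19 in KO vehicle, 2.21, 2.22 and 2.01 in control IL-4 and 2.35, 2.92 and 2.79 in KO IL-4. Each factor alone raised it, by 3.41 and 4.40, and both together by 4.94 (SE 0.157), which is less than the sum, with a departure of -2.86 (SE 0.23, limma adjusted p = 0.00113). Between 1 and 10 genes passed over the alternative settings. Cldn11, a tight junction protein, was at -1.94, -2.82, -2.16 and -2.77 in control vehicle, 2.04, 2.59 and 1.68 in control IL-4 and -1.01, -1.19 and -0.01 in KO IL-4. KO IL-4 thus lay between, and its departure of -2.76 did not pass (limma adjusted p = 0.292).

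Calls among markers of other cell types stand beside 12.6% of all genes tested that were called in either direction. None was called in either direction among the markers bright enough to be tested, which were 3 of 7 for T cells, 4 of 6 for B cells, 6 of 8 for neutrophils, 3 of 6 for dendritic cells, 1 of 6 for mast cells and basophils, 6 of 6 for fibroblasts and 3 of 4 for erythroid cells. The summed level of B cell markers was 18.4 to 21.3 on control vehicle arrays and 23.2 to 27.5 on KO IL-4 arrays, without overlap. That of T cell markers was 1.36 to 1.69 and 1.56 to 2.03, which overlap. T cell markers well above background on no array were Cd2, Cd8a and Lck in control vehicle and Cd3d in KO IL-4. Of the neutrophil markers 5 of 8 in each compared group were well above background on all of its arrays and Elane on none, and their summed level was 5.14 to 10.8 on control vehicle arrays and 5.58 to 12.1 on KO IL-4 arrays. Of the dendritic cell markers 2 of 6 in each group were so on all of its arrays and Cd209a and Clec9a on none. Among 4 natural killer cell markers tested Klrb1c was called higher, at least 2.39-fold (limma adjusted p = 0.0213), and it was not called in the normexp and quantile setting or without control vehicle 1 or 2 or KO IL-4 13 or 14. The summed level of natural killer cell markers was 0.651 to 0.914 on control vehicle arrays and 0.795 to 1.05 on KO IL-4 arrays. Of 5 eosinophil markers Ccr3 fell by 0.78, and the list's summed level was 38.3 to 43.9 and 22.99 to 25.5. That sum was 20.5 to 23.8 on KO vehicle arrays and 27.4 to 36.3 on control IL-4 arrays. The list's median change was -0.09, and a sum of signals follows its brightest probes most. Of 7 osteoclast markers 3 rose, Ocstamp by 3.23, Acp5 by 1.78 and Dcstamp by 1.04, and the summed level was 6.29 to 7.83 and 7.76 to 9.15. In the normexp and quantile setting Ocstamp was at 1.57 and Acp5 at 0.81. Acp5 was not called without KO IL-4 14, and Dcstamp not without control vehicle 1, 2 or 4 or KO IL-4 13 or 14. The part of these cell types in the results above was not tested. Of 21 macrophage markers 8 rose and 6 fell, with a median of -0.05. Among them Itgam, an integrin, rose by 1.81 and Aif1, an actin-binding protein, fell by 1.77.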

How the data were processed

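RNA of 13 samples was amplified with the NuGEN Ovation V2 kit, labelled with Cy3 and hybridised to 1-colour Agilent mouse arrays, 1 per sample, per the labels' protocols. The deposited scanner files give spot intensity, background-corrected by the authors with Agilent Feature Extraction 10.5.1.1, per the file headers, which also give probe positions on mm9. The submitters' processing notes name Feature Extraction 9.53 and limma. The deposited files also carry flags, coded 0 or 1, for spots well above background and for outliers, and the authors' deposited value table served as an alternative.

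Intensity was divided by the 75th percentile of its array and taken to log2. Of 41174 probes, 101 with outlier flags were left out. A probe was kept if all arrays of 1 group or more had it well above background, and the brightest probe stood for each gene, which gave 20546 genes. No spot was saturated. Group means of all 13 arrays were fitted in limma 3.58.1 (R 4.3.3) without covariates, two-sided, with Benjamini-Hochberg adjustment over all genes and a threshold of 0.05. Several probes were left for 6016 genes, and 214 of 1053 called genes of that kind had a probe that moved the other way. Symbols were updated through RefSeq for 80.4% of probes, and promoters are from RefSeq (GRCm38.p6), which matched 12503 genes. No other annotation was used, so exon and UTR positions of probes are not given. The number of arrays limits the precision.

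Named genes include the 10 largest changes each way among called genes whose KO IL-4 and control vehicle arrays did not overlap. They include the 6 largest each way in the set called only with both factors, again without such overlap. The 6 largest each way in the set called against each other group were added. These picks by size left out placeholder symbols, such as clone names and accessions. Up to 4 genes per list by adjusted p, any gene called for departure from additivity and 10 genes named beforehand complete the rule. Ccl17, Ch25h, Egr1, Ifitm3, Il1b, Il4ra, Irf7, Isg15, Mmp12, Mx1, Myc, Pdcd1lg2, Stat6, Tgm2, Tnf and Trim30a fall outside that rule and were chosen after their values were seen. Some genes are counted in the lists and are not reported here by name. Members and lists were chosen with earlier results of these data known. Scripts were tested on simulated data. Alternatives covered normalization, background correction, scaling, filter, probe choice, variance model, slide, the arrays in the fit, array weights and leaving out each array.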

Additional observations from a re-analysis of the deposited data

Results flagged for a closer look

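In 110 sets of 4 control vehicle values tested, 6 had 1 array apart from the other 3, and chance alone sets apart about 1 in 20 groups. Ier3 was at -1.0004 on control vehicle 2. Il1b was at 1.78 on control vehicle 2, where Scd2 was at 0.79. Psmb8 was at 2.76 on control vehicle 3, and Scd1 was at -0.28 on control vehicle 1. The mean signal of negative control spots was 131.27 on control vehicle 4 and 56.2 to 68.9 on the other control vehicle arrays.

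The effect of IL-4 on Ptgs1 differed between knockout and control cells, by -2.86 on the log2 scale (limma adjusted p = 0.00113).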

How the results depend on the processing

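No gene called in either direction turned to a call in the opposite direction under any alternative. Of 104 called genes named in the text 88 stayed past the threshold in every setting that measured them. The other 16 lost their call in 1 setting (Acp5 and Cldn11) to 18 settings (Hdac9). Counts of settings for single genes, here and above, leave out the setting that required a 2-fold change, which smaller changes cannot pass. Genes higher with both factors numbered 1447, and 924 in a fit of the 2 compared groups alone or 371 when a 2-fold change was required. Genes lower numbered 1141, and 715 with median scaling, 355 with the 2-fold requirement and 733 without the 2 arrays with the lowest shares of spots above background. Genes called only with both factors numbered 695 higher and 478 lower, with 205 and 261 under array weights, 129 and 183 with the 2-fold requirement, and 743 lower with scaling on probes detected on all arrays. Genes called against each other group numbered 28 higher and 70 lower. These were 75 and 111 with normexp background correction and quantile normalization together, 16 and 41 with median scaling, 63 and 115 with a trended robust variance, 8 and 21 with the 2-fold requirement, and 15 and 29 without the 2 low arrays, and there were 18 higher without a filter and 106 lower with array weights. Leaving out single arrays gave 925 to 1560 higher and 876 to 1227 lower with both factors, 205 to 851 and 285 to 627 only with both, and 10 to 37 and 38 to 93 against each other group. The 2-fold requirement gives fewer calls with both factors and against each other group by construction. It also applied to the single-factor calls, so genes called with 1 factor at under 2-fold could enter the set called only with both. Of the 1173 genes of that set 132 stayed in it. The 63 and 69 genes given earlier are those of the 1173 that changed at least 2-fold. For the other settings the cause was not tested. Within single slides, 2 named genes turned sign, H2-Ab1 at 0.15 on slide 2 and Ccl17 at -0.12 on slide 1. The groups share no replicate numbers, so the slide was the block used. With slide as a fixed block 1211 genes were higher and 1008 lower, and 695 of the 1173 genes called only with both factors stayed so. The joint normexp and quantile setting moved the changes of 27 named genes toward 0 by over 1.5 times, where quantile normalization alone moved 1 so far, and the part of each choice was not tested apart from that. A gene not well above background in a group has only a bound there.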
